A study of Mus musculus with 12 samples.

Results

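Calcium/calmodulin-dependent protein kinases and the phosphatase calcineurin are described here through 10 of the 41743 genes in the table, taken by symbol: Camk2a, Camk2b, Camk2d, Camk2g, Camk4, Camk1d, Camkk1, Camkk2, Ppp3ca and Ppp3r1. All 10 passed the filter on low values. RNA came from whole hippocampi of male C57Bl/6 mice that entered dosing at 12 weeks of age, with 6 vehicle samples (control) and 6 samples exposed to Gulf War toxicants (toxicant). The toxicant animals had 2 weeks of weekday subcutaneous injections of 2.5 mg/kg pyridostigmine bromide and 12.5 mg/kg chlorpyrifos, both cholinesterase inhibitors, with 7.5 mg/kg of the insect repellent DEET. Tissue was collected when dosing ended, and the question was how transcripts differed from vehicle. The labels name no other treatment or allele in either group and do not describe the vehicle. The columns of control 4 and control 5 held the same value in each gene and were counted once, as control 4-5, which left 5 control and 6 toxicant libraries.

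Calcium that enters a neuron through NMDA receptors and voltage-gated channels binds calmodulin, and the loaded calmodulin switches on both kinases and a phosphatase. CaMKII, a holoenzyme built from alpha, beta, gamma and delta subunits, holds its own activity through autophosphorylation and is a major protein of the postsynaptic density, where it is required for long-term potentiation. CaMKI and CaMKIV need a second kinase, CaMKK, to reach full activity, and CaMKIV acts in the nucleus on CREB. Calcineurin, a catalytic A subunit bound to the calcium sensor calcineurin B, removes phosphate from NFAT factors, CRTC coactivators and synaptic proteins, and is tied to long-term depression.

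Promoter windows, from 250 bases before to 50 after a transcript start, were taken by symbol from RefSeq (GRCm38.p6). Those used cover 6 of the 10 genes, in 7 windows, and counts over member windows hold for these genes only. That the other members are left out does not show that they lack a window in RefSeq. A set of 4 is printed because Camk2b, Camkk1 and Camkk2 varied together across libraries and Ppp3r1 did not vary with them. They lie at chr11:6065699-6065998 (minus strand), chr11:73018738-73019037 (plus), chr5:122779361-122779660 (minus) and chr11:17159048-17159347 (plus), in the order printed. Capitals mark a GC box (GGGCGG) or a cAMP response element half-site (TGACG), each searched on both strands, and no GC box overlapped a half-site, though neighbouring GC boxes of Camk2b and of Ppp3r1 share a base.
Camk2b promoter: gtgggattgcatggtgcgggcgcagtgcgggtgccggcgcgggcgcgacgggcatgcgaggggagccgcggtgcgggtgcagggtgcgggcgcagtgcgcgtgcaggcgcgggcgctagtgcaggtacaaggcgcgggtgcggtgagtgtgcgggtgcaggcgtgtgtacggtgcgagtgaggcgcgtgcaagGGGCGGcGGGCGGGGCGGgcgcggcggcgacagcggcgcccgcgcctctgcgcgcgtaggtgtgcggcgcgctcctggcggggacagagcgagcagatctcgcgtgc
Camkk1 promoter: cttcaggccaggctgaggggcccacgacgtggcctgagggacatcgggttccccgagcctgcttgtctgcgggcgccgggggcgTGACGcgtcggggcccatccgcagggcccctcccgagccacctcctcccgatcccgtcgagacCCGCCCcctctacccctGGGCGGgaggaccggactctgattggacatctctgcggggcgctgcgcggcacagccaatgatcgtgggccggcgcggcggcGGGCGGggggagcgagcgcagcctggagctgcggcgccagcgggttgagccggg
Camkk2 promoter: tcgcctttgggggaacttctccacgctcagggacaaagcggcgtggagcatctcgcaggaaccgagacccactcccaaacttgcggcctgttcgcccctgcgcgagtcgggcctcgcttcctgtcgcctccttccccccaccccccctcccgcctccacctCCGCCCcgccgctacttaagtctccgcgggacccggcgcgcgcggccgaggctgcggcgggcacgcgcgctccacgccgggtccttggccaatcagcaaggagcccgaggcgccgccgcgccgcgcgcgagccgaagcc
Ppp3r1 promoter: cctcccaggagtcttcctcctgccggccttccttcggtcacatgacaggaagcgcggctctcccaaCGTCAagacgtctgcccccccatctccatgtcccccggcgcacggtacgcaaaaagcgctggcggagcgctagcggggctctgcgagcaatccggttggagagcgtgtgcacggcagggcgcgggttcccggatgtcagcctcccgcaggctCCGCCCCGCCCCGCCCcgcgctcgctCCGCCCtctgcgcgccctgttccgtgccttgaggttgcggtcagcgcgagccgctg
These windows held 51, 36, 42 and 36 CG pairs, against a median of 7 over the 32851 windows of the table. Of the windows not printed, those of Camk1d held 29 and 5 and that of Camk2d 31. A GC box occurred in 7 of 7 member windows and in 35.7% of all windows. The half-site occurred in the windows of Camkk1 and Ppp3r1 and in 20.8% of all windows. The full element TGACGTCA was found in 0 of the 7 and in 1.79% of all. The windows of Camkk1, in the set that varied together, and of Ppp3r1, outside it, each held both motifs.

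The RPKM scale (reads per kilobase of exon model, scaled to the reads of the library) rested on 21.5 M to 34.9 M reads per library, recovered from the steps of the values. Depth was 29.6 M ± 3.61 (SD) in the 5 control libraries and 24.7 M ± 2.68 (SD) in the 6 toxicant libraries. Of those reads, 85.4% ± 4.58 (SD) fell on genes in the 5 control libraries and 80.8% ± 2.68 (SD) in the 6 toxicant libraries. The share ran from 78.4% in control 2 to 89.5% in control 1, and from 76.8% to 83.8% in toxicant libraries. Nothing in the labels says whether samples shared a cage, dissection or library batch. Markers of neurons, glia, vessels, the hippocampal fields and choroid plexus were present in every library, with 0 of 46 at 0. Choroid plexus markers, from tissue next to the hippocampus, summed to 16.4 to 2885 RPKM in control and 14.9 to 1800.1 RPKM in toxicant libraries. Fold changes were tested with limma on log2(RPKM + 0.5) over 13493 genes, at an adjusted p under 0.05, and understate the change of low genes.

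In toxicant hippocampi the 3 most abundant CaMKII subunits and both CaMKK genes were lower on average, and Camk4 was higher. Calcineurin, Camk1d and Camk2d differed by less than the SD of either group. The means of Camkk1, 48.99 ± 7.93 RPKM in control and 41.4 ± 3.62 RPKM in toxicant libraries, differed by less than the control SD. In whole tissue, fewer cells of a type and less RNA per cell cannot be told apart. No member passed limma's adjusted threshold, nor did any gene of the table (0%), and the members' adjusted p ran from 0.205 to 0.733. By limma voom on recovered reads 0 members passed as well. At an unadjusted p under 0.05, 4 of 10 members were lower, against 17.0% of all genes, and 1 was higher, against 3.33%. Toxicant values lay wholly below the control values in 0 members (2.03% of all genes) and wholly above in 0 (0.111%). Of the 10 members, 8 had a log2 fold change under 0, as did 70.0% of all genes. Their median was -0.18 and that of all genes -0.11, and 7 members lay below the latter. The panels of RPKM by library show that spread.

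**Figure D1:**
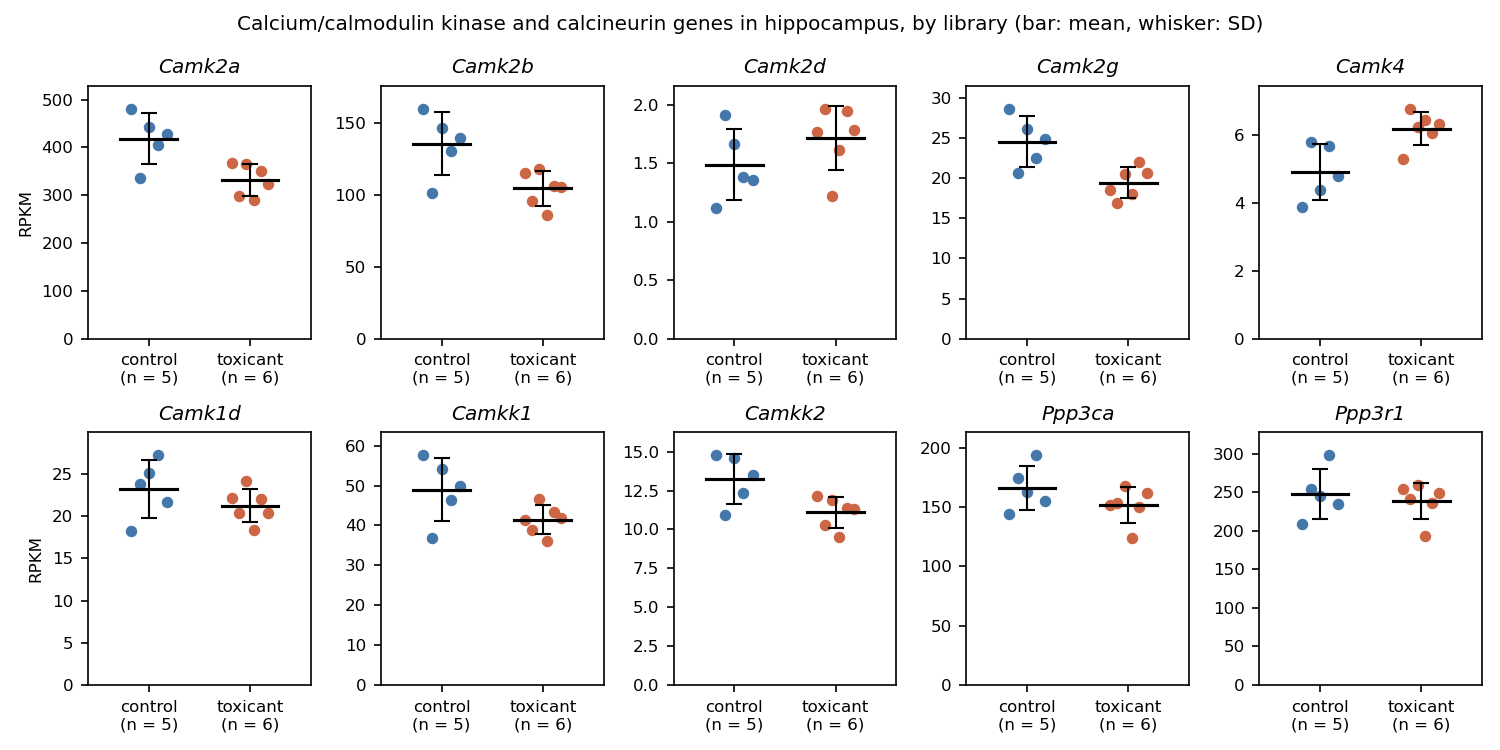
RPKM of the 10 genes in 5 control and 6 toxicant libraries, 1 panel per gene with an axis from 0; points are libraries, bars means and whiskers SDs. Camk2a, Camk2b, Camk2g and both CaMKK genes sit lower in toxicant libraries and Camk4 higher, and in all 10 panels the groups overlap.

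Camk2a (ENSMUSG00000024617, chromosome 18, 60925618 to 60988152, GRCm38), the alpha subunit found in excitatory forebrain neurons, was the most abundant member. Its control values were 480.4, 336, 442, 404 and 429 RPKM in control 1, 2, 3, 4-5 and 6. In toxicant libraries it ran from 291 through a median of 337 to 367 RPKM. Control 2 lay inside the toxicant range, and the other 4 control libraries lay above all 6 toxicant libraries. The means were 418 ± 53.6 (SD, n = 5) and 333 ± 33.4 RPKM (SD, n = 6), which limma put at -0.33 ± 0.11 log2 units (SE, adjusted p = 0.215), and 4.41% of tested genes had a lower fold change.

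Camk2b (ENSMUSG00000057897, chromosome 11, 5969644 to 6066362), whose beta subunit binds actin filaments, followed the same order. It stood at 159.8, 101.2, 147, 131 and 139.7 RPKM in control 1, 2, 3, 4-5 and 6, and at 86.3 to 118 RPKM with a median of 105.96 in toxicant libraries. As for Camk2a, control 2 alone fell within the toxicant range. The log2 fold change was -0.37 ± 0.12 (SE, adjusted p by limma = 0.214), from means of 136 ± 22.0 (SD, n = 5) and 104.5 ± 11.9 RPKM (SD, n = 6).

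Camk2g (chromosome 14, 20734875 to 20794088) encodes the gamma subunit, which can carry calmodulin from the membrane to the nucleus. Control values were 28.7, 20.6, 26.2, 22.6 and 25.0 RPKM in the same order, and toxicant values ran from 17.0 to 22.1 RPKM with a median of 19.5. Of the 6 toxicant libraries 4 lay below the lowest control, again control 2. The log2 fold change was -0.33 ± 0.10 (SE, adjusted p by limma = 0.205), the smallest adjusted p among the members.

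Camk2d (chromosome 3, 126596302 to 126846326), the delta subunit best known from heart muscle, was the lowest member and ran the other way. It stood at 1.119, 1.91, 1.66, 1.38 and 1.36 RPKM in control 1, 2, 3, 4-5 and 6, and at 1.22 to 1.96 RPKM with a median of 1.77 in toxicant libraries. These ranges overlapped almost fully, and the log2 fold change was 0.16 ± 0.12 (SE, adjusted p by limma = 0.370). Its level rested on 678 to 1318 reads spread over an exon model of 22.5 kb, against a median of 4.31 kb for tested genes.

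Per length, Camk2a supplied 72.2% ± 0.581 (SD) of the summed RPKM of the 4 subunit genes in the 5 control libraries and 72.6% ± 0.616 (SD) in the 6 toxicant libraries. Camk2b supplied 23.3% ± 0.756 and 22.8% ± 0.694, Camk2g 4.25% ± 0.163 and 4.27% ± 0.370, and Camk2d 0.266% ± 0.0921 and 0.379% ± 0.0783. The ratio of Camk2a to Camk2b was 3.10 ± 0.130 (3.01 to 3.32) in control and 3.19 ± 0.122 (3.06 to 3.37) in toxicant libraries. These shares do not move with the scaling of a library, and all overlapped between groups. The Camk2a share was 0.396 percentage points higher in toxicant libraries, and 0.626 without control 2. For the ratio of Camk2a to Camk2b the difference of 0.0885 came to 0.144 without control 2. The summed level of the 4 genes was 580.1 ± 78.3 and 458 ± 45.9 RPKM.

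The upstream kinases resembled Camk2a and Camk2b. Camkk1 (chromosome 11, 73019008 to 73042073), the CaMKK alpha gene, stood at 57.5, 37.0, 54.1, 46.4 and 49.96 RPKM in control 1, 2, 3, 4-5 and 6, and at 36.1 to 46.7 RPKM with a median of 41.6 in toxicant libraries. Control 2 was below all but 1 toxicant library, and the log2 fold change was -0.23 ± 0.11 (SE, adjusted p by limma = 0.255). Camkk2 (chromosome 5, 122731170 to 122779409), the CaMKK beta gene, which also phosphorylates the energy sensor AMPK, stood at 14.8, 10.9, 14.6, 12.4 and 13.5 RPKM in control libraries. Its toxicant values were 9.54 to 12.2 RPKM with a median of 11.3, so that 4 of 5 control libraries lay above all toxicant libraries. The log2 fold change was -0.24 ± 0.09 (SE, adjusted p by limma = 0.223). The RPKM of Camkk1 was 3.69 ± 0.188 times that of Camkk2 over the 5 control libraries (SD) and 3.74 ± 0.179 times over the 6 toxicant libraries, a difference smaller than either SD.

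Of the kinases that CaMKK activates, Camk4 had a fold change of the other sign and Camk1d one of the same sign. Camk4 (ENSMUSG00000038128, chromosome 18, 32934931 to 33191228), the nuclear CREB kinase, was at 3.87, 5.80, 4.38, 5.67 and 4.81 RPKM in control 1, 2, 3, 4-5 and 6. Toxicant values ran from 5.30 to 6.77 RPKM with a median of 6.29, and 5 of 6 lay above the highest control, which was control 2. The means were 4.90 ± 0.829 (SD, n = 5) and 6.19 ± 0.498 RPKM (SD, n = 6), which limma put at 0.32 ± 0.10 log2 units (SE, adjusted p = 0.207), and 93.3% of tested genes had a lower fold change. Relative to Camk2a, Camk4 came to 1.21% ± 0.362 in control and 1.89% ± 0.322 in toxicant libraries, with overlapping ranges. Whether counting used strand is not stated, and exons of the antisense gene 2310026I22Rik cover 2.21% of the Camk4 exon model, at no more than 0.247 RPKM in any library. Camk1d (chromosome 2, 5293457 to 5714515), a CaMKI gene that acts in the cytoplasm, was at 18.2, 23.7, 25.04, 27.2 and 21.7 RPKM in control libraries and at 18.3 to 24.1 RPKM (median 21.2) in toxicant libraries. All 6 toxicant libraries lay within the control range, and limma put the difference at -0.12 ± 0.11 log2 units (SE, adjusted p = 0.448).

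The calcineurin genes were the most abundant members per length after Camk2a, and neither was separated by group. Ppp3ca (ENSMUSG00000028161, chromosome 3, 136670124 to 136937727), the main catalytic subunit of brain, stood at 144, 174, 163, 193 and 155 RPKM in control 1, 2, 3, 4-5 and 6, and at 124 to 168 RPKM with a median of 153 in toxicant libraries. Ppp3r1 (ENSMUSG00000033953, chromosome 11, 17159263 to 17200375), the calcium-binding B subunit, stood at 209, 255, 245, 298 and 235 RPKM in control and at 194 to 259 RPKM with a median of 245 in toxicant libraries. For both genes control 4-5 was the highest library and toxicant 4 the lowest, with the rest of the 2 groups interleaved. The log2 fold changes were -0.13 ± 0.10 for Ppp3ca (SE, adjusted p by limma = 0.390) and -0.05 ± 0.11 for Ppp3r1 (SE, adjusted p by limma = 0.733). Ppp3ca stood at 0.670 ± 0.0177 of the RPKM of Ppp3r1 (0.650 to 0.692) in control and 0.635 ± 0.0194 (0.597 to 0.650) in toxicant libraries. The lowest control and the highest toxicant ratio agreed to 3 digits. The Ppp3r1 exon model shares 14.3% of its bases with Wdr92, which lay at or below 2.65 RPKM.

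Per length, the order of control means was Camk2a, Ppp3r1, Ppp3ca, Camk2b, Camkk1, Camk2g, Camk1d, Camkk2, Camk4 and Camk2d. Camk2g at 24.6 ± 3.14 and Camk1d at 23.2 ± 3.42 RPKM (SD, n = 5) did not differ beyond their spread, and in toxicant libraries their order was turned, at 19.5 ± 1.92 and 21.2 ± 1.97 RPKM (SD, n = 6). Control ranges also overlapped for the neighbours Ppp3ca and Camk2b. In toxicant libraries Ppp3ca, at 124 RPKM or more, lay above Camk2b, at 118 RPKM or less.

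Leaving out control 2 ended the lack of calls. Without it, 6 members passed limma's adjusted threshold: Camk2a (-0.40 ± 0.10, adjusted p = 0.0238), Camk2b (-0.47 ± 0.10), Camk2g (-0.39 ± 0.09), Camkk1 (-0.33 ± 0.09) and Camkk2 (-0.31 ± 0.08) lower, and Camk4 (0.38 ± 0.10) higher. In the same fit 28.1% of 13468 genes were called lower and 8.56% higher, so calls were common across the table, against 5 and 1 of the 10 members. All 6 toxicant libraries then lay below the lowest remaining control for Camk2a, Camk2b, Camk2g and Camkk2, and 5 of 6 for Camkk1. Such full separation, in 4 of 10 members, was found in 11.9% of all genes below the controls and in 0.728% above them, where 0 members lay. Camk2d, Camk1d, Ppp3ca and Ppp3r1 did not pass, with an adjusted p of 0.114 or more. No other single library changed the count of 0 members when left out. Without control 2 the share of reads on genes was 83.1% to 89.5% in control and 76.8% to 83.8% in toxicant libraries. These ranges hardly overlapped, and the part of the share in the calls without control 2 was not tested.

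The share of reads on genes moved with the members and with the groups. In control 2, the control library with the lowest share, Camk2a and Camkk2 were at their control minimum and Camk4 at its control maximum. RPKM and the share are both divided by the same recovered read total of the library, so they are linked by construction. Whether that total holds all sequenced or only mapped reads is not given. With the share as a covariate, its limma term, which cannot separate that link, passed the adjusted threshold in 6 of 10 members. Camk2a, Camk2b, Camk2g, Camkk1 and Camkk2, 5 of 10, increased with it, as did 41.8% of all genes, and Camk4, 1 of 10, decreased with it, as did 22.1%. These shares are near those of the table and say nothing particular to the members. Camk2b gained 0.05 log2 units per percentage point of share (adjusted p = 0.000114) and Camk4 changed by -0.04 (adjusted p = 0.00193). Beside that term the toxicant log2 fold changes were -0.14 ± 0.06 for Camk2a, -0.13 ± 0.06 for Camk2b, -0.17 ± 0.07 for Camk2g and 0.14 ± 0.07 for Camk4, with limma adjusted p of 0.338 to 0.429. Those of Camkk1 and Camkk2 were -0.02 ± 0.07 and -0.06 ± 0.05. The all-gene median was -0.0336 in that fit, against -0.11 without the term. Share and group were not independent, so their parts cannot be fully told apart.

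**Figure D2:**
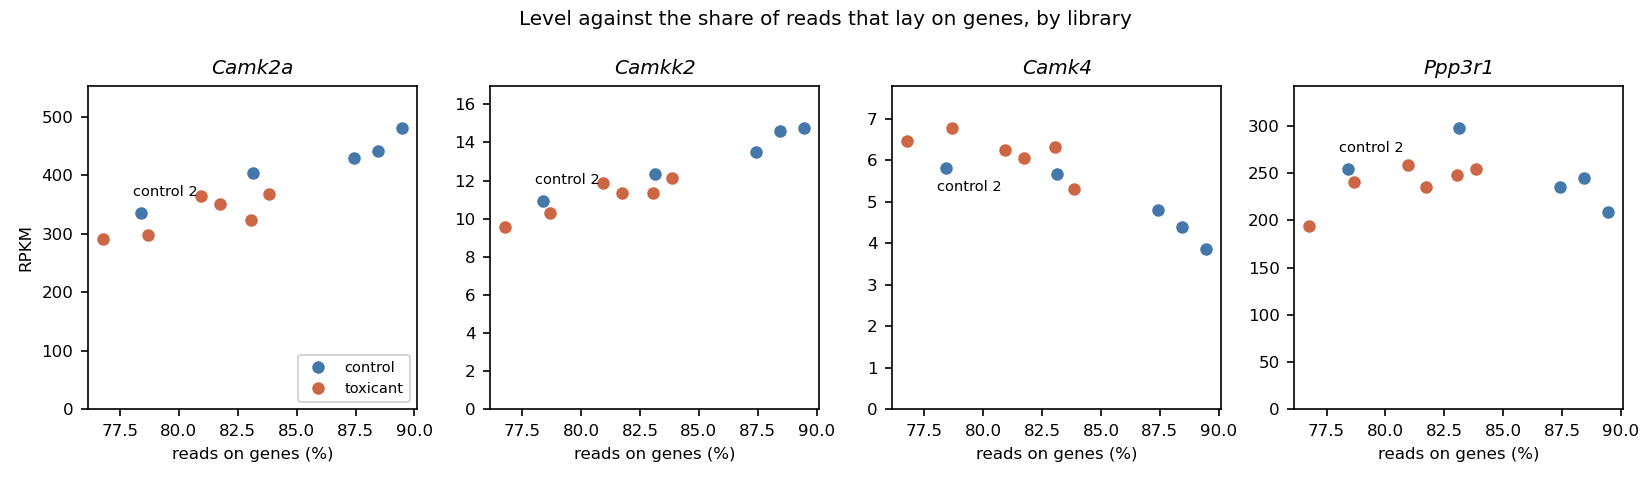
RPKM of Camk2a, Camkk2, Camk4 and Ppp3r1 against the percentage of reads on genes, with 5 control (blue) and 6 toxicant (orange) libraries as points and control 2 named. Camk2a and Camkk2 climb with the share in both groups, Camk4 declines, and Ppp3r1 follows no such line.

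Other scalings moved the same values. Median-ratio scaling, which brought the all-gene median to 0.0014, gave -0.19 ± 0.08 for Camk2a, -0.23 ± 0.09 for Camk2b, -0.20 ± 0.06 for Camk2g and 0.44 ± 0.13 for Camk4, each with a limma adjusted p of 0.372. Camkk1 and Camkk2 came to -0.10 ± 0.07 and -0.11 ± 0.06, from -0.23 and -0.24 as deposited. Under it the log2 fold changes of Camk1d (0.01), Ppp3ca (0.0023) and Ppp3r1 (0.08) were on the other side of 0. With each library's GC trend removed, Camk4 was at 0.40 ± 0.10 (limma adjusted p = 0.157), Camk2a at -0.17 ± 0.06 and Ppp3r1 at -0.21 ± 0.11. The all-gene median was then -0.0188. The signs of Camk2a, Camk2b, Camk2g, Camkk1, Camkk2, Camk2d and Camk4 were the same in all 22 alternatives run. Not all of these were separate tests of the sign. The other filters and the fit without a variance trend cannot change a member's fold change. The fit with a block for replicate number repeated the fold changes of a fit with a toxicant library left out.

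**Figure D3:**
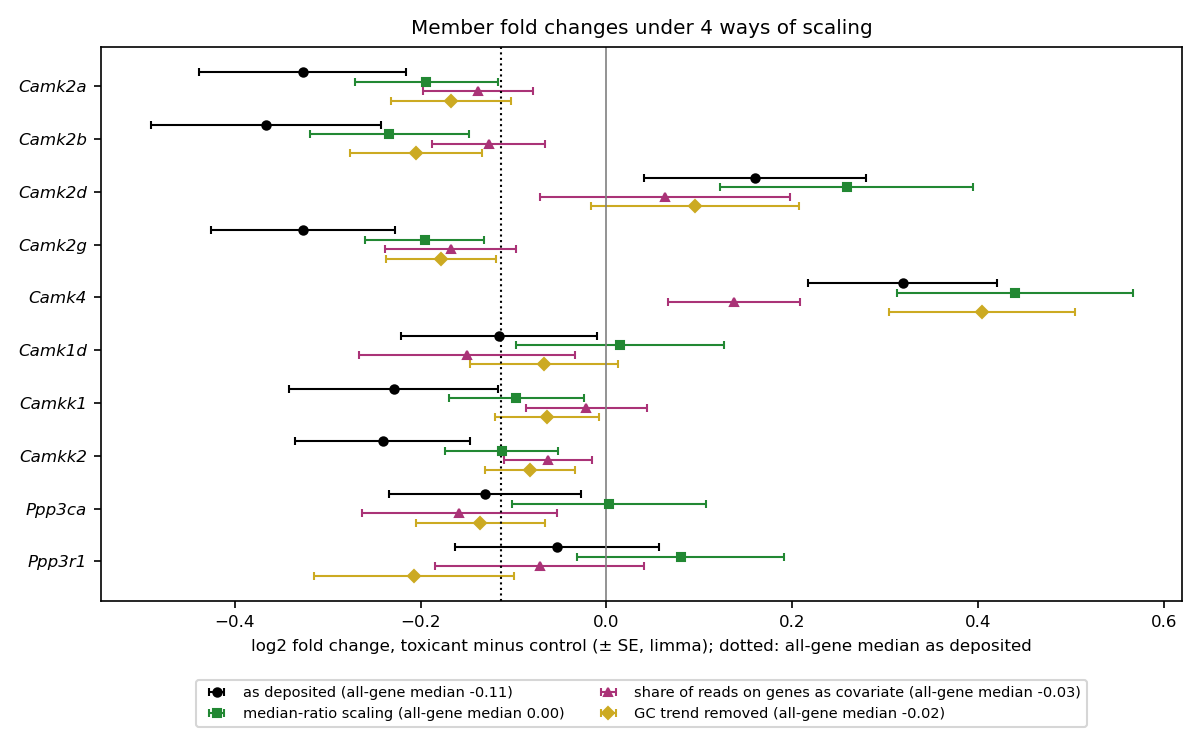
Log2 fold change (toxicant minus control, ± SE from limma) of the 10 genes as deposited, with median-ratio scaling, with the on-gene read share as covariate, and with the GC trend removed. Camk2a, Camk2b and Camk2g stay left of 0 and Camk4 right of 0 in all 4, while Camk1d, Ppp3ca and Ppp3r1 reach 0 or beyond under median-ratio scaling.

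Within groups the members varied as 2 sets, seen after the values were known and given as a description over 11 libraries that share their scaling. After each group mean was subtracted, Camk2a, Camk2b, Camk2g, Camkk1 and Camkk2 had pairwise Pearson r of 0.78 to 0.98. Camk1d, Ppp3ca and Ppp3r1 had r of 0.84 to 0.97 among themselves, and r between the 2 sets was -0.28 to 0.06. Camk4 ran against the first set (r from -0.84 to -0.72), and so did Camk2d (r from -0.61 to -0.45). The 5 genes of the first set had a GC content of 51.8% to 55.2% in their longest transcript, above the other 5 members at 41.4% to 48.2%. As deposited, the log2 fold changes of these 5 genes were -0.33, -0.37, -0.33, -0.23 and -0.24, in the order named. With the GC trend removed they were -0.17, -0.20, -0.18, -0.06 and -0.08, and the all-gene median moved from -0.11 to -0.0188.

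**Figure D4:**
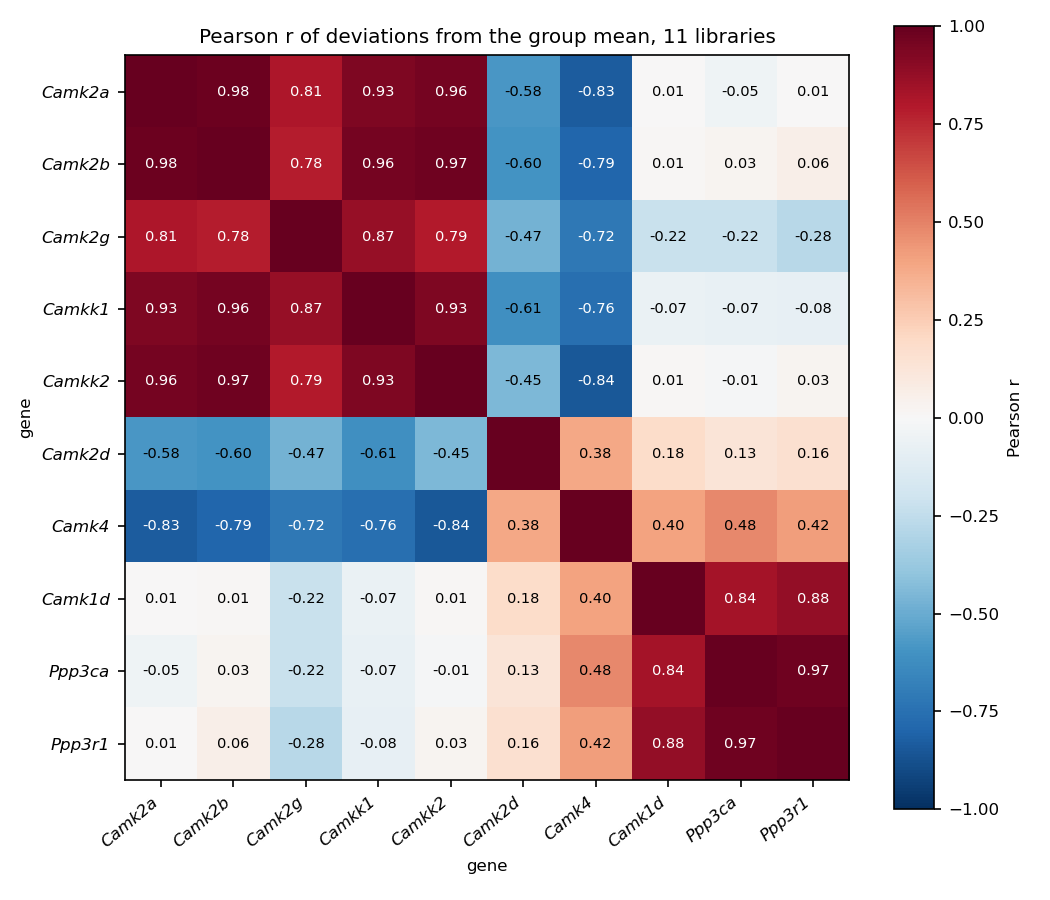
Pearson r between members of log2(RPKM + 0.5) after subtraction of the group mean, over 11 libraries, on a colour scale from -1 to 1. Camk2a, Camk2b, Camk2g, Camkk1 and Camkk2 form one block at r of 0.78 or more, Camk1d, Ppp3ca and Ppp3r1 another, and Camk4 is negative against the first.

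The genes most like Camk2a by that measure were Tbc1d14, Tmem119, Camk2b, Map2k1 and Nefl (r from 0.976 to 0.98), and 6.50% of all tested genes were above 0.9. Tmem119 marks microglia and Nefl encodes a neurofilament subunit. The genes most like Ppp3ca were AI593442, Ppp3r1, Rbfox1, Kcnab1 and Clvs2 (r from 0.959 to 0.974), and 0.227% of genes were above 0.9. The 2 subunits of calcineurin were thus close to each other in the order of the genes ranked, as were Camk2a and Camk2b.

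Of the other genes of the pathway, from lists chosen with earlier results of these data known, 44 of 46 passed the filter and 0 passed the adjusted threshold in either direction. At an unadjusted p under 0.05, 11 of the 44 were lower and 2 higher, beside 17.0% and 3.33% of all genes. Of the 44, 36 had a log2 fold change under 0 and 25 lay below the all-gene median, with a list median of -0.15 that was -0.02 under median-ratio scaling. By list, 5 of 7 calmodulin-binding genes, 10 of 11 other CaM kinases, 8 of 10 calcineurin partners and 10 of 13 downstream factors were under 0, where 70.0% of all genes were.

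Calm2 and Calm3 encode the same protein, calmodulin. Calm2 had a log2 fold change of -0.11 ± 0.10, about the all-gene median, and Calm3 had means of 743 ± 157 (SD, 5 control libraries) and 605 ± 80.5 RPKM (SD, 6 toxicant libraries), or -0.28 ± 0.15 log2 units. Neurogranin (Nrgn), which holds calmodulin at the dendritic spine at low calcium, had means of 836 ± 191 and 667 ± 106.3 RPKM (-0.31 ± 0.17, limma adjusted p = 0.273). Of the CaMKII inhibitor genes, Camk2n1 was at 232 ± 19.4 and 193 ± 24.8 RPKM (-0.27 ± 0.11, limma adjusted p = 0.225) and Camk2n2 had a log2 fold change of -0.07 ± 0.17. The inhibitor Camk2n1 and the kinase Camk2a both had log2 fold changes under 0, as did 70.0% of all genes. The other CaMKI genes Camk1, Camk1g and Pnck and the pseudokinase Camkv stood at -0.04 ± 0.08, -0.19 ± 0.12, -0.09 ± 0.19 and -0.16 ± 0.14.

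Among calcineurin partners, the second catalytic gene Ppp3cb had means of 34.0 ± 2.86 and 33.6 ± 2.13 RPKM, or -0.02 ± 0.08 log2 units. The third, Ppp3cc, had means of 4.44 ± 0.179 and 3.87 ± 0.207 RPKM (-0.18 ± 0.06, limma adjusted p = 0.217). Rcan1, a calcineurin regulator whose transcription calcineurin itself induces through NFAT, was at 13.2 ± 2.82 and 10.5 ± 1.12 RPKM (-0.30 ± 0.13, limma adjusted p = 0.237), and Rcan2 at 0.03 ± 0.12. Akap5, which anchors calcineurin at the synapse, was at 6.59 ± 2.07 and 9.22 ± 1.21 RPKM (0.49 ± 0.17, limma adjusted p = 0.215), and 2 of 6 toxicant libraries lay above the highest control. Of the downstream factors, the kinase target Creb1 was at 0.48 ± 0.19 (limma adjusted p = 0.227) and its coactivator Crtc1 at -0.24 ± 0.10 (limma adjusted p = 0.231). The factor Mef2c, the corepressor Hdac5 and the calcineurin target Nfatc3 stood at 0.06 ± 0.17, -0.20 ± 0.11 and -0.03 ± 0.10.

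**Figure D5:**
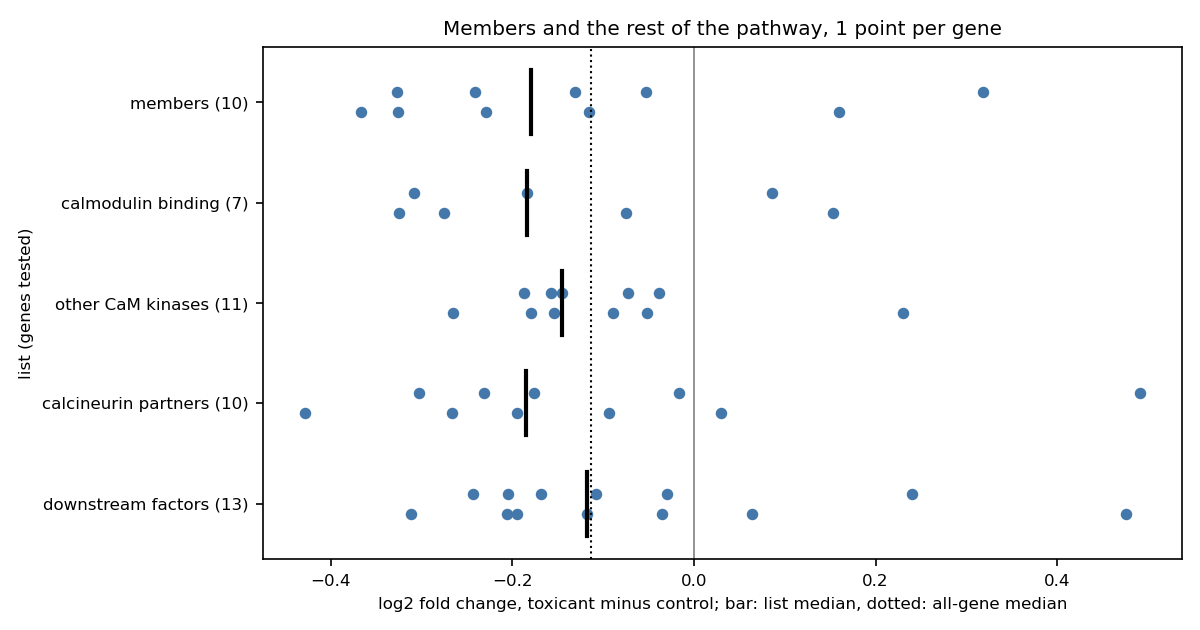
Log2 fold change (toxicant minus control) of each tested gene, as 1 point, for the 10 members and 4 pathway lists, with the list median as a bar and the all-gene median of -0.11 as a dotted line. The list medians lie between -0.19 and -0.12, close to that line, and single genes spread to both sides of 0.

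Cell type markers were mostly lower on average in toxicant libraries, as were 70.0% of all genes, whose median was -0.11. Of 6 excitatory neuron markers, the class best known for Camk2a, 6 were lower, at a median of -0.26 log2 units and with summed levels of 379 to 573 RPKM in control and 355 to 458 RPKM in toxicant libraries. Of 4 dentate granule cell markers 4 were lower (median -0.48, summed 45.0 to 75.03 and 37.5 to 59.8 RPKM). Of 6 inhibitory neuron markers 4 were lower (median -0.12, summed 216 to 367 and 241 to 319 RPKM). Of 5 oligodendrocyte markers 4 were lower (median -0.51, summed 512 to 589.6 and 372 to 519 RPKM). All markers of CA1 (3 of 3) and CA3 pyramidal cells (3 of 3), microglia (5 of 5), endothelial cells (4 of 4) and choroid plexus (5 of 5) were lower, at medians of -0.37, -0.12, -0.23, -0.32 and -0.74, and 3 of 5 astrocyte markers were lower, at -0.05. Under median-ratio scaling the medians of inhibitory neuron (0.0104), CA3 (0.00608) and astrocyte markers (0.0792) were above 0, and those of excitatory neuron, microglia and endothelial markers came to -0.13, -0.10 and -0.21. Dentate granule cell, CA1, oligodendrocyte and choroid plexus medians were then -0.36, -0.24, -0.38 and -0.66. None of these lists had a marker past the adjusted threshold. Their part in the member values was not tested.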

How the data were processed

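RNA-seq of whole hippocampus was analysed in 6 control and 6 toxicant samples; per the labels' protocols, poly(A) RNA was made into NEBNext Ultra libraries and read as single reads. The deposited table gives RPKM values per gene and library, per the file headers; for the aligner, counting program, genome build and annotation, nothing is given in the sources used here. Columns were matched through the code in each sample's description.

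Identical columns were counted once. A gene entered the tests at a mean RPKM of 0.5 or more. Values were analysed as log2(RPKM + 0.5) with limma 3.58.1 in R 4.3.3 (mean-variance trend, two-sided, no covariate), with Benjamini-Hochberg adjustment over all 13493 genes and a threshold of 0.05. The fit was tested on simulated data with independent noise for each gene and library. That test did not cover variation that a library shares across genes. Exon lengths, positions and transcript GC content came from GENCODE M21 (GRCm38), in which 41675 of 41743 IDs were found. Multiplied by exon length, 98.3% to 98.4% of a library's values were whole reads within 0.05, which gave depth and the share of reads on genes. Counting error was small: each member had at least 356 reads per library. The samples are labelled as different animals.

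Named genes were the 10 members, 20 pathway genes fixed by name (1 of them is not reported here), and the 5 genes most correlated with Camk2a and with Ppp3ca. Members and lists were chosen with earlier results of these data known. Alternatives were each library left out, all 12 columns, other pseudocounts and filters, median-ratio scaling, no variance trend, voom on recovered reads, the share of reads as covariate and a replicate block. The test of the share term and the removal of the GC trend were chosen after seeing the data.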

Additional observations from a re-analysis of the deposited data

Results flagged for a closer look

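Across 40 groups of values (10 members and 10 shares, sums and ratios, in each group), 4 held 1 library set apart from the rest by a gap larger than Dixon's 95% critical value, where chance gives about 1 in 20, or 2. Ppp3r1 in toxicant 4 was at 194 RPKM, against 236 to 259 RPKM in the other 5 toxicant libraries. In control 2, Camk2b made up 22.0% of CaMKII RPKM, against 23.4% to 23.9% in the other controls, and the ratio of Camk2a to Camk2b was 3.32, against 3.01 to 3.09. These 2 values come from the same genes in the same library. The ratio of Ppp3ca to Ppp3r1 in toxicant 1 was 0.597, against 0.637 to 0.650 in the other toxicant libraries.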

How the results depend on the processing

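The count of members past the threshold was 0 in all alternatives but the fit without control 2, where it was 6, so leaving out 1 library gave 0 to 6. The median log2 fold change of the members was -0.18 and moved to -0.0474 under median-ratio scaling, where the all-gene median moved from -0.11 to 0.0014. With the on-gene read share as covariate the members' median was -0.0994 and the all-gene median -0.0336. With the GC trend removed they were -0.109 and -0.0188. Under median-ratio scaling Camk1d, Ppp3ca and Ppp3r1 were at 0.0145, 0.0023 and 0.0800. Leaving out 1 library gave -0.11 to 0.0147 for Ppp3r1, with the other sign without control 4-5 (0.0147) or toxicant 4 (0.0056). It gave -0.18 to -0.07 for Ppp3ca (highest without toxicant 4 or control 4-5), -0.20 without control 1 to -0.06 without control 4-5 for Camk1d, and 0.09 without control 1 to 0.23 without control 2 for Camk2d. The difference in the ratio of Camkk1 to Camkk2 ranged from -0.0263 without control 2 to 0.115. The cause was not tested. Same-numbered samples share only a number: their deviations correlated at -0.30 to 0.62, and 1 of 5 control libraries was closest to its own number. With the replicate block (control 4-5 as number 4) the median was -0.19 and 0 members and 0 genes passed. Toxicant 5 then had no control of its number, so the block gave the same fold changes as leaving toxicant 5 out. Over all genes, 9 passed with the 12 columns as deposited and 1 with a pseudocount of 0.1. Each member had 356 reads or more per library.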
